A study of Mus musculus with 55 samples.

Results

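The regions described here are 68 of 97113 stretches of open chromatin in mouse bone marrow-derived macrophages (BMDM) whose histone acetylation was high after 2 h of lipopolysaccharide and below 2 times the vehicle measure after 6 h. They were chosen by measured values, the deposited signal of acetylated histone H3 lysine 27 (H3K27ac). In replicate 1 and in replicate 2 alike, the LPS 2 h value had to be at least 10 and at least 3 times the sum of the PBS 2 h value and 1, and the LPS 6 h value had to be below 2 times that sum. Raised at 2 h by that measure were 2462 regions. At 6 h, in both replicates, the 68 were below 2 times that sum and 1563 were at least 3 times it. Those 1563 are called the regions that keep acetylation and are given beside the 68.

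Cells were grown from C57BL/6 marrow with M-CSF from L-cell medium and starved of serum overnight, and every group shares that preparation. The groups used were 3'SL with LPS, 3'SL alone, LPS alone and the vehicle PBS, each for 2 h or 6 h, with LPS (lipopolysaccharide, the bacterial agonist of TLR4) at 10 ng/ml and 3'SL (3'-sialyllactose, a sialylated milk oligosaccharide) at 100 µg/ml. H3K27ac and the acetyltransferase p300 were measured by ChIP-seq, with 2 libraries per group except PBS, which was represented by replicate 2 alone for p300 at either time and for H3K27ac at 6 h. The labels do not say whether replicates came from separate animals, so the p-values cover only how much these samples varied, and that variation may be technical. One further PBS library of H3K27ac, of replicate 1, has no time in its title and entered the fit as a group of its own. The open regions came from ATAC-seq of another study, in untreated macrophages and macrophages given the TLR4 ligand Kdo2-lipid A. Peak lists of p300, LXR and SREBP, used further below, came from macrophages given the LXR agonist GW3965 at 1 µM.

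As background, LPS binding to TLR4 activates NF-κB and the MAP kinases that act on AP-1, and these factors bind enhancers that PU.1 and other macrophage factors hold open. They bring in p300 and its relative CBP, which acetylate histone H3 at lysine 27 in the nucleosomes around active enhancers and promoters. The response has early and late waves: some genes are induced briefly and return to low levels while others stay on, and NF-κB and MAP kinase signalling induce their own inhibitors.

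Sequence is shown for 10 regions, the 7 with more p300 after LPS for 2 h by the test described later, and 3 more: A530072M11Rik, with the smallest p for H3K27ac under 3'SL, the second Tlr2 region and Klf6, an immediate early gene. They were chosen after their values were seen. Each line gives the nearest gene with the distance of the region from its start site in bases, minus meaning upstream, and the 200 bases around the region's centre on the plus strand of mm10. Capitals mark matches to NF-κB, AP-1 or interferon-stimulated response element (ISRE) motifs on either strand.
Bcl2l11 +113234, chr2:128240709-128240908: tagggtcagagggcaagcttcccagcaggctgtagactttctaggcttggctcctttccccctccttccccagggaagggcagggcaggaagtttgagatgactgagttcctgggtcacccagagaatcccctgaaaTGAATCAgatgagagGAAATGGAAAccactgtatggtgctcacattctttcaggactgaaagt
Tlr2 -3785, chr3:83845293-83845492: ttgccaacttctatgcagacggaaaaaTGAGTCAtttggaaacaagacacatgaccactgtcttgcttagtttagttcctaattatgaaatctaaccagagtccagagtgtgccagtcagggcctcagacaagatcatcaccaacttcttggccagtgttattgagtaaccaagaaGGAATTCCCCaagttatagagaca
Tlr2 -3290, chr3:83844798-83844997: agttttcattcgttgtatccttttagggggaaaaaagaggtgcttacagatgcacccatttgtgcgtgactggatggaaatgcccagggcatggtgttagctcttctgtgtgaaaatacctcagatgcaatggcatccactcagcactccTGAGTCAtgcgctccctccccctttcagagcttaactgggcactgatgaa
Slc45a1 -55165, chr4:150707239-150707438: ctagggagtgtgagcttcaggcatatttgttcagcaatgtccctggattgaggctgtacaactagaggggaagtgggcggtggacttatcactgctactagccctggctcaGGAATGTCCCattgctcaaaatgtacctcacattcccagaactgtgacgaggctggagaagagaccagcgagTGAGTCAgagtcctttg
A530072M11Rik +4506, chr4:16168516-16168715: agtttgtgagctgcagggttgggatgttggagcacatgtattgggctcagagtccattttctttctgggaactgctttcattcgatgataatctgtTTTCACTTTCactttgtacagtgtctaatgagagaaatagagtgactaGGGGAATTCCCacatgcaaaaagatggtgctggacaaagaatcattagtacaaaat
0610040F04Rik -27583, chr6:108688417-108688616: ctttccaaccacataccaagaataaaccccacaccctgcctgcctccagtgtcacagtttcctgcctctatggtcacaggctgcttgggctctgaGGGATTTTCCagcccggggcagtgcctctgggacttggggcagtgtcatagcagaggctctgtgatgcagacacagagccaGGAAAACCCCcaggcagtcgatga
Bahcc1 +24195, chr11:120257042-120257241: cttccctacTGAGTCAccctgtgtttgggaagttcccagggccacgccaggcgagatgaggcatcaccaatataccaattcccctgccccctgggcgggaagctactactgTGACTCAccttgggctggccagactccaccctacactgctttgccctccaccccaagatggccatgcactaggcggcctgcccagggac
Klf6 +248034, chr13:6109423-6109622: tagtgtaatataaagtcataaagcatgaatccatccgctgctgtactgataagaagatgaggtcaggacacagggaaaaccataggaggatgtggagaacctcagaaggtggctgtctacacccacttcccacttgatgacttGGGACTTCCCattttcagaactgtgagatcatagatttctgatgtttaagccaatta
Mmp13 -21474, chr9:7250940-7251139: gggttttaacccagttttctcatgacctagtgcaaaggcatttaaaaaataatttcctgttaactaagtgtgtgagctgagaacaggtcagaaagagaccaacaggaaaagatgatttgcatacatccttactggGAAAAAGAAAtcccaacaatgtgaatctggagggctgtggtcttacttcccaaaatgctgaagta
C030013C21Rik +12329, chr11:80496677-80496876: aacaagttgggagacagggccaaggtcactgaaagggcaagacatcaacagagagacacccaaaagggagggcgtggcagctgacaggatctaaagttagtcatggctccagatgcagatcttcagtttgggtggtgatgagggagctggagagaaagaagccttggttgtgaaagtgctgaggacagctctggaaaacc
Of the Tlr2 regions, the one at -3785 holds an NF-κB and an AP-1 match and the one at -3290 an AP-1 match alone. Slc45a1 holds both kinds of match, Bcl2l11 an AP-1 and an ISRE match, and the A530072M11Rik region an ISRE match and 2 overlapping NF-κB matches. Bahcc1 holds 2 AP-1 matches, 0610040F04Rik 2 NF-κB matches, Klf6 an NF-κB match and Mmp13 an ISRE match. The C030013C21Rik region had the second smallest p for p300 and holds none of the 9 motifs searched, so it is shown for contrast.

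The H3K27ac libraries held between 4200716 and 39597624 tags. Tags summed over the 1000-base windows around the open regions came to 42.6% to 79.3% of the library total, and to 8.65% to 8.85% in the inputs. The p300 libraries held between 3199270 and 18130439 tags. Their sums over 200-base windows came to 20.1% to 27.5% in replicate 2 and 6.12% to 9.42% in replicate 1. Windows of neighbouring regions can overlap, so a tag may be counted more than once in these sums. Values below are normalised tags, that is, tags per 10000000 rescaled for this difference. The promoters of all 8 macrophage markers looked up, from Csf1r to Fcgr1, carried 88.4 to 598 normalised tags of H3K27ac with PBS at 2 h. No T or B cell marker promoter was among the open regions, 1 of 3 neutrophil markers was (17.1 and 51.1), and the dendritic cell and fibroblast promoters that were present had at most 6.28. Labels and titles disagree for some libraries. Replicate 1 of H3K27ac with LPS, with 3'SL and with both is titled 2 h but carries a treatment label of 1 h, and a vehicle label stands on the replicate 2 library of 3'SL with LPS titled 2 h. Titles were followed, and results are given per replicate so that they can be read without that library. At the 68 regions its median of 33.2 was close to the 42.0 of the other library of its group and above the 5.92 to 10.3 of the 3'SL 2 h libraries.

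The values that chose the regions are a description and received no test. The median over the 68 regions was 44.2 and 41.6 normalised tags in the 2 libraries with LPS at 2 h, against 8.52 and 6.03 with PBS at 2 h, and it was 17.04 and 8.31 with LPS at 6 h. Both LPS 6 h libraries exceeded the lone PBS 6 h library at 46 of the 68 regions, where 33.2% of all regions did so. The median log2 difference from that library was 0.68 over the 68, beside 0.003 over all regions. The other values of this and the next paragraph are deposited signal, tags per 10000000. The levels spanned a wide range at 2 h of LPS, with 10.1 in replicate 1 at the weakest region, near 2200002D01Rik, and 803.9 in replicate 1 at the strongest, near Etv3, an ETS-family repressor. Ordered by the smaller of the 2 replicate ratios of LPS to PBS plus 1, the first region lay 46844 bases from Mrm3, a mitochondrial ribosomal RNA methyltransferase, with 73.6 and 43.8 after LPS for 2 h, against 8.26 and 3.46 with PBS, and a ratio of at least 7.95. Bcl2l11, which encodes the death-promoting protein BIM, followed with 136 and 71.7 after LPS and 9.91 and 9.22 with PBS, and a ratio of at least 7.02. Next came Slc45a1, a sugar transporter, at 6.398, H2-Q7, an MHC class Ib gene with near-identical copies, at 5.52, Dock10 at 5.25, and Asap1, an Arf GTPase-activating protein, at 5.22. The third Mmp13 region was at 5.21, Naglu, a lysosomal enzyme, at 5.17, C030013C21Rik at 5.11 and Ccdc90b at 5.09. These 10 had the highest smaller ratios of the 68.

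Just inside the limit at 2 h were Rcsd1, Mir6352 and Nfkb1, with a smaller ratio of 3.01, 3.03 and 3.03, and just outside were Socs1, another Etv3 region and Nudt4, with 2.97, 2.97 and 2.95. At 6 h the regions just inside were Icam1, Stard3nl and Stx11, with a larger ratio of 1.995, 1.99 and 1.99, and those just outside were Foxq1, Zzz3 and Zbtb32, with 2.004, 2.004 and 2.02. Lowest in level among the 68 were 2200002D01Rik, Foxo1 and F930015N05Rik, at 10.09, 11.28 and 11.32, and Mir6921, another Klf6 region and Il10 missed the minimum at 9.81, 9.81 and 9.06. The values run on across each limit without a gap, and the count moves with it: 155 regions met a 2.5-fold limit at 2 h, 20 a 4-fold limit, and 13 a limit of 1.5 at 6 h. In replicate 1 alone 853 regions met the rule and in replicate 2 alone 775.

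**Figure D1:**
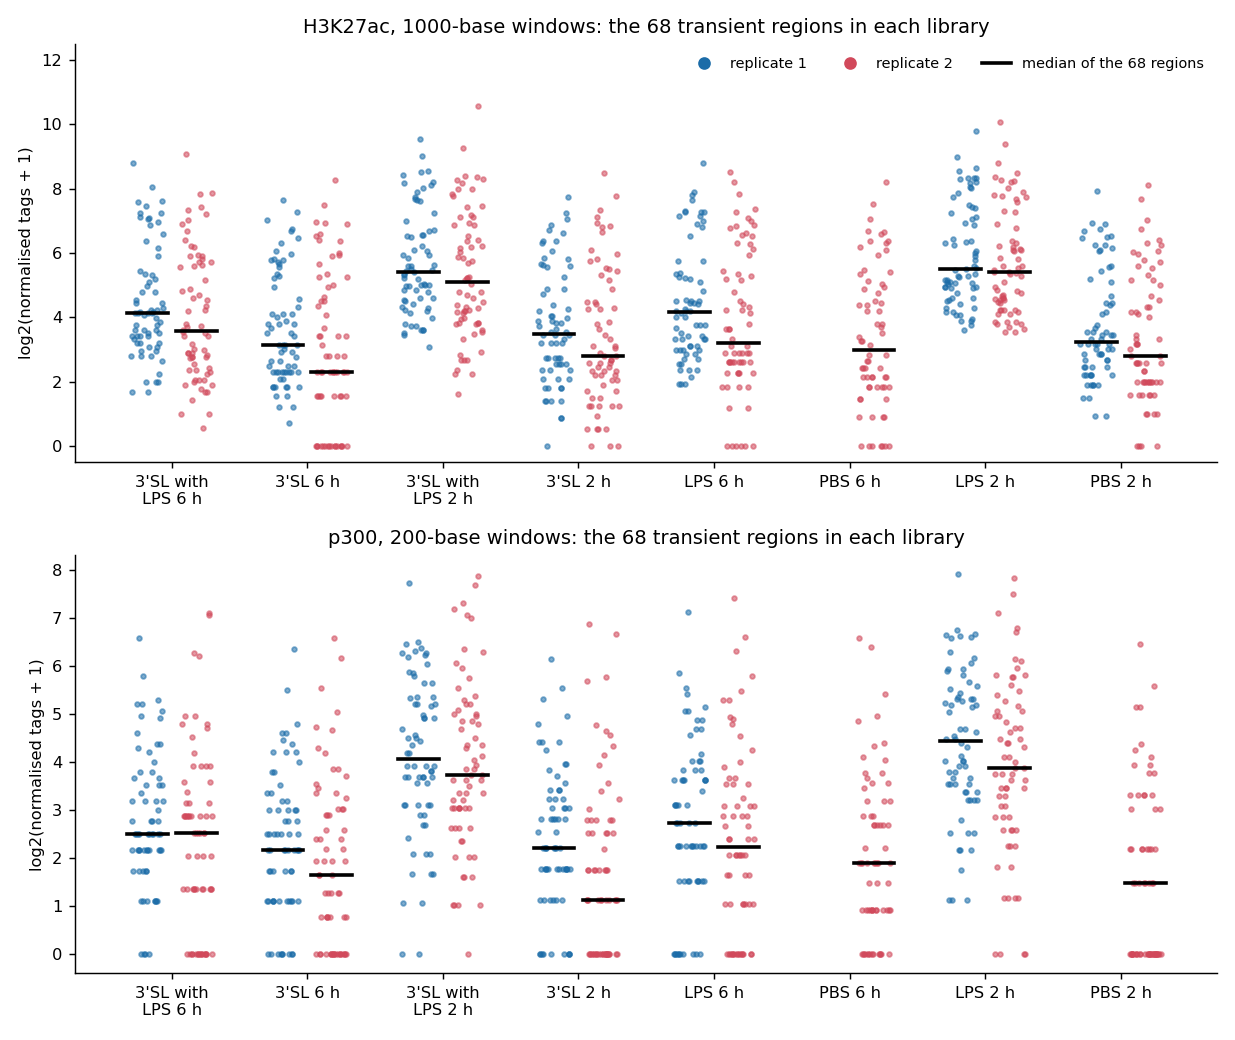
Level of H3K27ac (top) and p300 (bottom) at the 68 regions in each library, as log2(normalised tags + 1); points are regions, colours are replicates and black lines are medians over the 68 regions. For H3K27ac the LPS 2 h, LPS 6 h and PBS 2 h columns chose the regions and the other columns did not; PBS had 1 library where only replicate 2 is drawn. In both marks the medians of the libraries with LPS for 2 h stand above all others.

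The libraries with 3'SL were not used by the rule and give the same measure in separate libraries. All 68 regions had a higher mean log2 level of H3K27ac with 3'SL and LPS for 2 h than with 3'SL alone, and 13 of them passed the test, among them regions nearest to Nfkb1, Icam1, Tlr2, Gadd45b, Etv3, Stx11 and Bcl2a1d. The median of the 68 regions was 42.0 and 33.2 normalised tags with 3'SL and LPS, against 10.3 and 5.92 with 3'SL. The median log2 difference over the 68 was 1.91, or 1.96 in replicate 1 and 1.83 in replicate 2, beside 2.59 over the regions that keep acetylation and 0.04 over all 97113. In 64 regions both libraries with LPS lay above both without, where 22% of all regions did so. The 13 calls compare with 1.55% of the 79349 regions tested that were called higher, by limma's trended empirical Bayes test on log2(value + 1) with Benjamini-Hochberg adjustment over all of them at 0.05. The test's spread also came from the LPS 2 h, LPS 6 h and PBS 2 h libraries, which chose the regions. All 68 passed the filter on low regions, which their LPS 2 h libraries alone could meet. Calls in this and the later H3K27ac tests are thus not independent of the rule's values. With 2 libraries a group the calls are fragile: 1 call was left without replicate 1 of 3'SL with LPS, and 0 were left without its replicate 2, the library whose treatment label disagrees. Without replicate 1 of 3'SL 0 calls were left, and without its replicate 2 there were 2. On the authors' scaling 4 were called and without a filter on low regions 8; DESeq2 called 34 and edgeR 13.

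The smallest p belonged to a region 4506 bases into A530072M11Rik, a non-coding transcript by the deposited annotation. Its H3K27ac was 298 and 314 normalised tags with 3'SL and LPS at 2 h, against 54.97 and 98.8 with 3'SL. The log2 difference was 2.04 ± 0.32 (SE, n = 2 each) with an adjusted p of 0.0116 by limma. The neighbouring window at 4954 bases shares tags with it and gave 260.5 and 310.6, against 48.4 and 110.1. Nfkb1 encodes p105, the precursor of the NF-κB subunit p50. Its region, 837 bases into the gene, had 522 and 611 with 3'SL and LPS at 2 h, against 151 and 218 with 3'SL, a log2 difference of 1.63 ± 0.34 and an adjusted p of 0.0343 by limma. Icam1 encodes an adhesion molecule that binds leukocyte integrins. Its upstream region had 42.6 and 57.8, against 9.03 and 4.10, a log2 difference of 2.82 ± 0.59 and an adjusted p of 0.0322 by limma. Gadd45b, a stress-induced activator of a MAP kinase kinase kinase, had 201 and 256 with 3'SL and LPS, against 47.6 and 20.5 with 3'SL, and a log2 difference of 2.82 ± 0.57. In each of these regions the 2 libraries with LPS stood clear of the 2 without. The called regions were named after their values were seen. Among the others, the log2 difference ran from 1.42 at Bcl2a1d, a BCL2-family survival gene with near-identical copies, to 3.96 at Mrm3, and Tlr2 -3290, upstream of the receptor for bacterial lipoproteins, was at 1.73 ± 0.39.

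At 6 h the difference in the same arm was smaller. The median of the 68 regions was 16.4 and 11.05 normalised tags with 3'SL and LPS, against 7.82 and 3.94 with 3'SL alone. The median log2 difference was 0.97, beside 2.36 over the regions that keep acetylation and 0.12 over all regions. In 34 regions both libraries with LPS were above both without, where 19.7% of all regions were. By limma 1 region was called, where 0.518% of all tested regions were called higher; it lay at -47025 bases from Med13l, which encodes a subunit of the Mediator kinase module. Med13l had 70.2 and 71.4 with 3'SL and LPS at 6 h, against 15.0 and 9.84 with 3'SL, a log2 difference of 2.45 ± 0.45 and an adjusted p of 0.0420. With values as scaled by the authors, where the median of the tested regions shifted by -0.16, the median of the 68 was 0.82. The Med13l call was absent without 3'SL replicate 2 and without either 3'SL with LPS library, and 0 were called by edgeR, on the authors' scaling or without the filter.

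Between the times, 67 of the 68 regions had a lower mean with 3'SL and LPS at 6 h than at 2 h, with a median log2 difference of -1.18. The per-replicate medians were -1.10 and -1.32, with 66 of 68 regions lower in each, beside -0.09 and -0.41 over the regions that keep acetylation and 0.07 and 0.01 over all regions. In 53 regions both 6 h libraries were below both 2 h libraries, where 13.9% of all regions were. None of the 68 passed limma's adjusted test, nor did any region (0% called lower); 30 of the 68 had an unadjusted p under 0.05, where 4.24% of all tested regions did, and edgeR called 0 and DESeq2 2. These fits left out the replicate number, and the calls with it as a block differ and are given in the last section. With values as scaled by the authors, where the median of the tested regions shifted by -0.14, the median of the 68 was -1.32. The smallest p values were those of Naglu, A530072M11Rik +4506, Itgb8, Bcl2l11 and Nfkb1. Naglu had 2.99 and 12.0 at 6 h, against 43.8 and 36.7 at 2 h, a log2 difference of -2.51 ± 0.61 (adjusted p of 0.638 by limma). Itgb8, an integrin subunit that activates latent TGF-β, had 42.6 and 58.7 at 6 h, against 149 and 216 at 2 h, and a log2 difference of -1.83 ± 0.50. Bcl2l11 had 17.9 and 9.82 at 6 h, against 104 and 37.1 at 2 h, and a log2 difference of -2.14 ± 0.61. In each of the 3 both 6 h libraries lay below both 2 h libraries. The test of whether the LPS difference under 3'SL itself changed between the times called 0 of the 68 regions by limma, edgeR and DESeq2 (0% of all regions called lower by limma; 11 of the 68 at an unadjusted p under 0.05, as were 1.70% of all tested regions, and a median of -0.98).

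**Figure D2:**
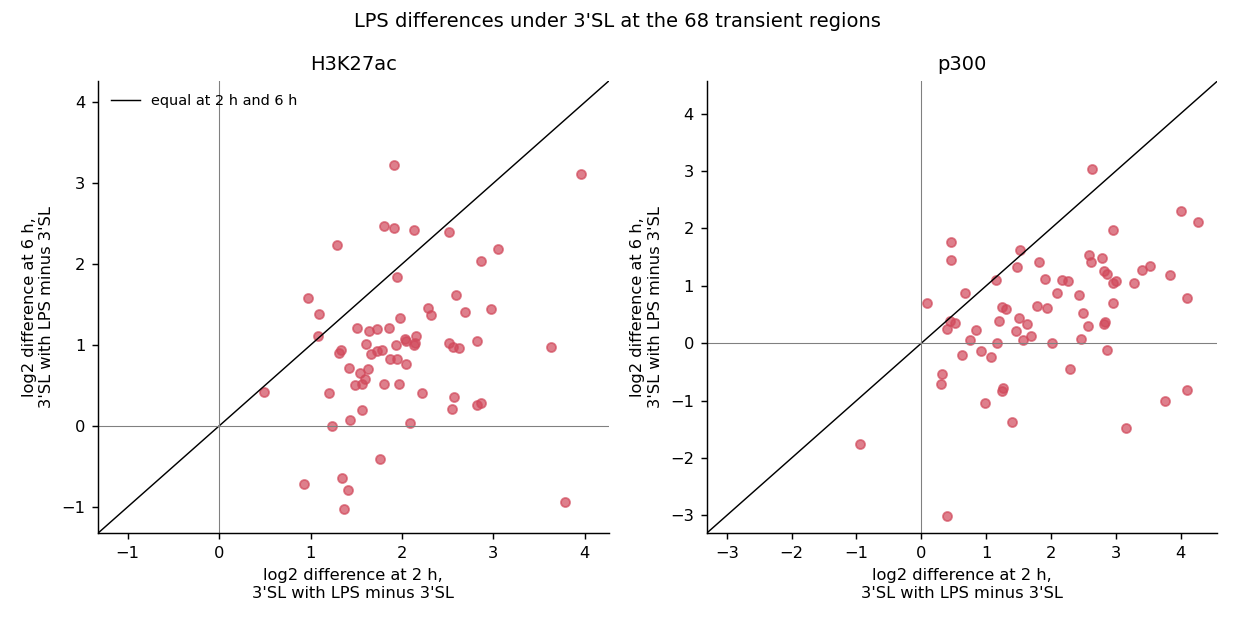
Each point is 1 of the 68 regions, with the log2 difference between 3'SL with LPS and 3'SL alone at 2 h on the horizontal and at 6 h on the vertical axis, for H3K27ac (left) and p300 (right); the line marks equal differences. Most points lie under the line, with medians of 0.97 at 6 h and 1.91 at 2 h for H3K27ac, and of 0.56 at 6 h and 1.86 at 2 h for p300.

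Expressed as a share of the gain, the regions had 26.4% of their summed H3K27ac gain over 3'SL left at 6 h (median of single regions 25.3%), and the regions that keep acetylation had 85.2% left. The H3K27ac libraries with LPS alone sorted the regions into these sets and are left out here. The difference between the sets in the 3'SL arm was not tested. Without LPS the regions moved little in time: with 3'SL alone the median log2 difference of 6 h against 2 h was -0.23 in replicate 1 and -0.28 in replicate 2, beside 0.07 and -0.13 over all regions.

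p300 played no part in the choice of the regions. After LPS for 2 h it was at a median of 20.6 and 13.8 normalised tags over the 68 regions, against 1.80 in the PBS 2 h library. At 30 regions all 4 libraries with LPS at 2 h, with or without 3'SL, held at least 10 normalised tags of p300, and at 10 regions all 4 held fewer than 10. Both LPS 2 h libraries exceeded the PBS library at 57 of 68 regions, where 35.9% of all regions did so. The vehicle library is the shallowest, with 3199270 tags, and it had 0 tags at 33 of the 68 regions and at most 3 tags at 49. Against it the median ratio was 2.59 when the vehicle was set to no less than a floor of 3 tags. The p300 input had a median of 1.82 at the same regions, on the deposited scale. Fitted by limma over the 62225 regions that passed the filter on low tags, 7 of the 55 members among them were called higher, where 2.05% of all tested regions were. Enough tags in 1 library could meet that filter, since the smallest group held 1. A member could thus enter through the libraries with LPS at 2 h alone. The 7 of 55 is therefore given as a description, as are the member counts of the p300 tests below. With no filter 4 members were called. The lone PBS library was assumed to vary like the other groups. With edgeR 0 of the members were called and with DESeq2 1; 1 was called when either LPS library was left out, and 0 on the authors' scaling. The authors' scaling moved the median log2 difference of LPS from PBS over all tested regions by -0.79 at 2 h. The median of the 68 regions was then 2.10 at 2 h, beside -0.33 over all regions, where the rescaled values gave 2.70 and 0.24.

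The smallest p among the 7 called regions was at Bahcc1 +24195, in the second intron of a gene for a chromatin protein with a BAH domain. It had 107 and 53.9 normalised tags with LPS at 2 h, against 0 tags in the PBS library. The mean of the 2 LPS libraries was 14.9 times the floor of 3 tags in that PBS library. At 6 h the region had 3.80 and 38.4 with LPS, against 8.17 with PBS. With 3'SL and LPS at 2 h it had 86.9 and 127, against 8.45 and 9.58 with 3'SL. The log2 difference of LPS from PBS at 2 h was 6.27 ± 1.01 (SE, n = 2 and 1) with an adjusted p of 0.00352 by limma, and this region was the one called by DESeq2 (adjusted p of 0.0266). Over all alternatives its adjusted p ran from 5.0e-06 to 0.309.

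At Slc45a1 p300 was close to 0 again at 6 h. It was 94.4 and 32.6 with LPS at 2 h, a mean of 11.8 times the floor, against 0 tags with PBS. At 6 h it was 1.90 and 0 with LPS, against 0 tags with PBS, and with 3'SL and LPS it was 73.9 and 12.4 at 2 h and 4.66 and 0 at 6 h. At Bcl2l11 the order of the libraries was similar. Its p300 was 66.1 and 47.6 with LPS at 2 h, against 2 tags (3.60 normalised) with PBS, a ratio of 15.9 with an exact 95% counting interval of 4.27 to 133. At 6 h it was 3.80 and 7.47 with LPS, against 5.45 with PBS. With 3'SL and LPS it was 81.5 and 52.6 at 2 h, against 10.9 and 5.99 with 3'SL. The p300 of this region thus was high in all LPS 2 h libraries and low at 6 h. Its H3K27ac had the same order, which the rule fixed with LPS alone but not with 3'SL and LPS.

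At the 2 Tlr2 regions, whose H3K27ac windows overlap, p300 differed in level. Tlr2 -3785, with the NF-κB and the AP-1 match, had 239 and 227 with LPS at 2 h, against 86.4 with PBS, and 139 and 169 with LPS at 6 h, against 82.6 with PBS. This was the region with the most p300 of the 68 in the vehicle library, and it was not called. Tlr2 -3290, with the AP-1 match alone, had 60.2 and 30.1 with LPS at 2 h, against 0 tags with PBS. Their mean was 8.36 times the floor. At 6 h the region had 7.60 and 26.7 with LPS, against 0.908 with PBS. The remaining called regions were C030013C21Rik +12329, with 38.9 and 41.4 after LPS for 2 h, 0610040F04Rik, with 34.2 and 61.4, and Mmp13 -21474, upstream of a collagenase gene, with 42.5 and 27.6, each against 0 tags in the PBS library. Their means with LPS at 2 h were 7.44, 8.86 and 6.49 times the floor. The next 3 regions by p, which were not called, were Itgb8, A530072M11Rik +4506 and Bahcc1 +23817. Itgb8 had 95.5 and 110.3 with LPS at 2 h, against 14.4 with PBS, and A530072M11Rik +4506 had 49.5 and 32.6, against 0 tags.

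**Figure D3:**
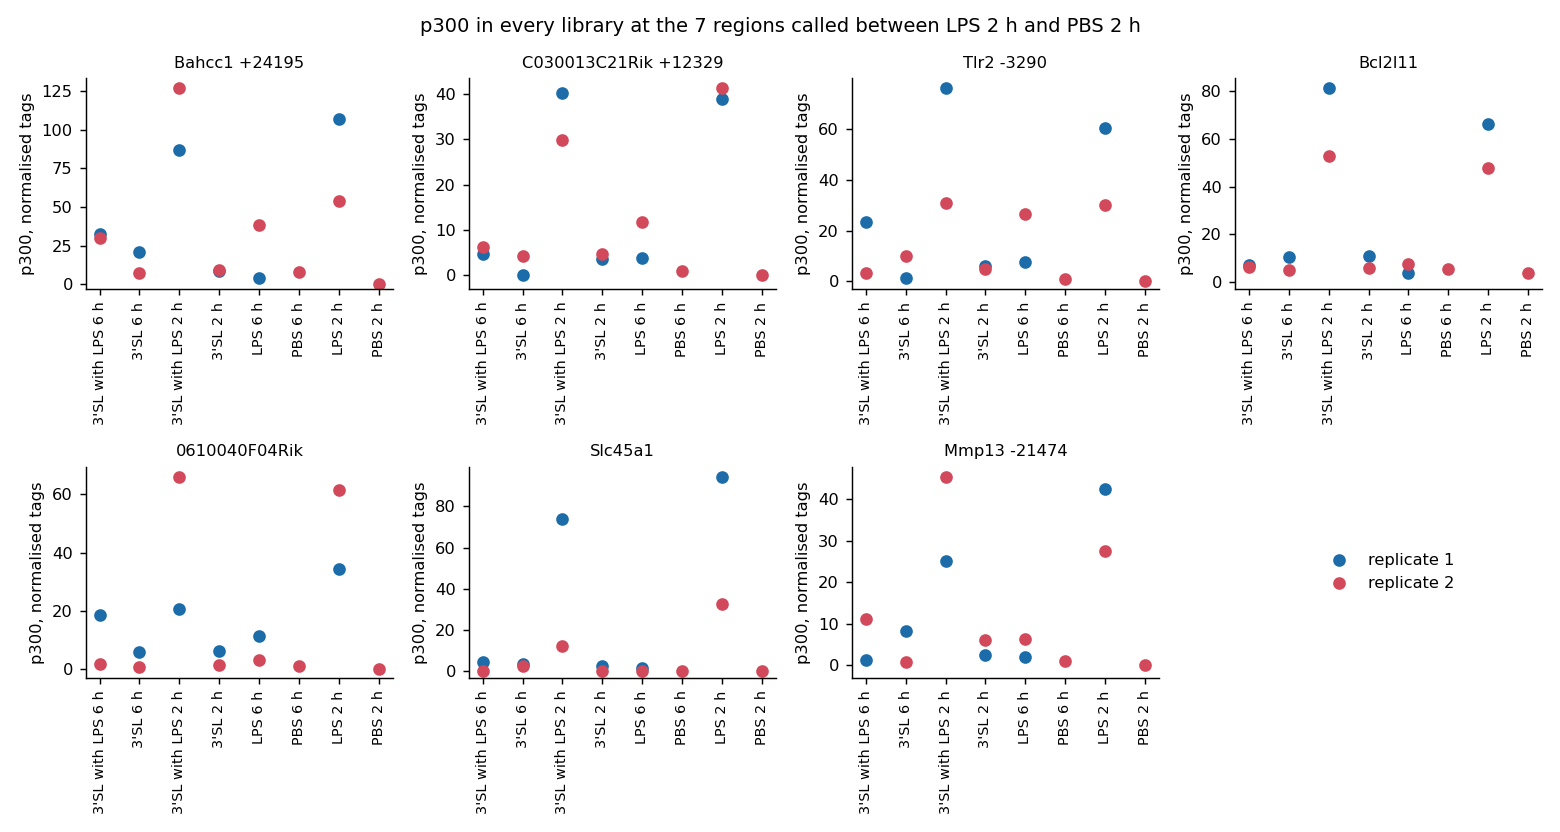
p300 in normalised tags in every library at the 7 regions called between LPS 2 h and PBS 2 h, one panel per region; points are libraries, colours are replicates, and PBS has 1 library at each time. In each panel the LPS 2 h points lie above the PBS 2 h point, and at Bcl2l11 the 4 libraries with LPS at 2 h, between 47.6 and 81.5, lie above every other library.

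Some strongly acetylated regions had little p300 in the window counted. That window was 200 bases for p300 and 1000 bases for H3K27ac, so p300 outside the shorter window was not counted. Nfkb1 had 9.44 and 2.51 normalised tags of p300 with LPS at 2 h, against 3.60 with PBS, and Etv3 had 11.8 and 6.27, against 1.80, while their H3K27ac in the same group was 511 and 667 at Nfkb1 and 893 and 1069.9 at Etv3. Both regions lie in the first intron, 837 and 827 bases from the start site. The 68 log2 differences of H3K27ac and p300 between 3'SL with LPS and 3'SL at 2 h had a Spearman rho of 0.37. The points share cells, and some share overlapping windows, so this is a description.

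At 6 h p300 was lower. Its median over the 68 regions was 5.70 and 3.74 with LPS, against 2.72 with PBS, and both LPS libraries exceeded the PBS library at 28 regions, where 30.2% of all regions did so. The median log2 difference over the 68 was 0.56, but -0.05 as scaled by the authors, a shift of -0.91 in the median of the tested regions. By limma 0 members were called, where 0.387% of all tested regions were called higher; 3 had an unadjusted p under 0.05, where 9.68% of all tested regions did, and edgeR and DESeq2 called 0. Between the times, p300 with LPS was lower at 6 h than at 2 h in 60 of 68 regions in replicate 1 and in 57 in replicate 2, with medians of -1.41 and -1.42, beside -0.53 and -0.48 over the regions that keep acetylation and 0 in both replicates over all regions. In 42 regions both 6 h libraries were below both 2 h libraries, where 16.1% of all regions were. Limma called 0 members and 0% of all regions, and edgeR and DESeq2 called 0. Of the 55 members tested, 23 had an unadjusted p under 0.05, where 5.07% of all tested regions did. This is a description, since a member could pass the filter through its 2 h libraries alone. With values as scaled by the authors, where the median of the tested regions shifted by -0.26, the median of the 68 was -1.80. The smallest p values were at Bcl2l11, with a log2 difference of -3.16 ± 0.70, and at Slc45a1, with -5.05 ± 1.18 (adjusted p of 0.918 each by limma), followed by Gm8633, 1700055D16Rik and Icam1. Icam1 had 13.3 and 1.07 at 6 h, against 100.3 and 25.1 at 2 h.

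With 3'SL the libraries were ordered alike. Median p300 was 15.8 and 12.4 with 3'SL and LPS at 2 h, against 3.62 and 1.20 with 3'SL, and both libraries with LPS exceeded both without at 46 regions, where 17.4% of all regions did so. None of the 55 members tested passed limma's adjusted test, where 1.11% of all tested regions were called higher, and edgeR called 2 and DESeq2 6. An unadjusted p under 0.05 was found at 30 of the 55, where 11.3% of all tested regions had one. The same limit of the filter makes this a description. Here too the fits left out the replicate number, and the last section gives the differing calls with it as a block. The smallest adjusted p by limma was 0.0525, at Hs1bp3, with 54.3 and 36.1, against 3.62 and 1.20. At 6 h the medians were 4.66 and 4.73 with 3'SL and LPS, against 3.49 and 2.14 with 3'SL. Both libraries with LPS exceeded both without at 18 regions, where 15.5% of all regions did so, and 0 members were called by limma, edgeR or DESeq2 (0.227% of all tested regions called higher by limma; 4 members at an unadjusted p under 0.05, as were 8.68% of all tested regions). Between 6 h and 2 h with 3'SL and LPS, p300 was lower at 59 and 61 of 68 regions in the 2 replicates, with medians of -1.28 and -1.62, beside -0.37 and -0.96 over the regions that keep acetylation. Both 6 h libraries were below both 2 h libraries at 36 regions, where 15.0% of all regions were. Limma called 0 members and 0% of all regions, and edgeR and DESeq2 called 0. Of the 55 members tested, 17 had an unadjusted p under 0.05, where 5.17% of all tested regions did, again a description. Of the summed p300 gain at 2 h, 17.5% was left at 6 h with 3'SL and LPS and 16.7% with LPS alone, and over the regions that keep acetylation 57% and 62% were left. These sums took in only regions with a gain at 2 h, 67 of the 68 with 3'SL and LPS and 64 with LPS alone. The share with LPS alone rests on 1 PBS library at each time and on the rescaling.

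**Figure D4:**
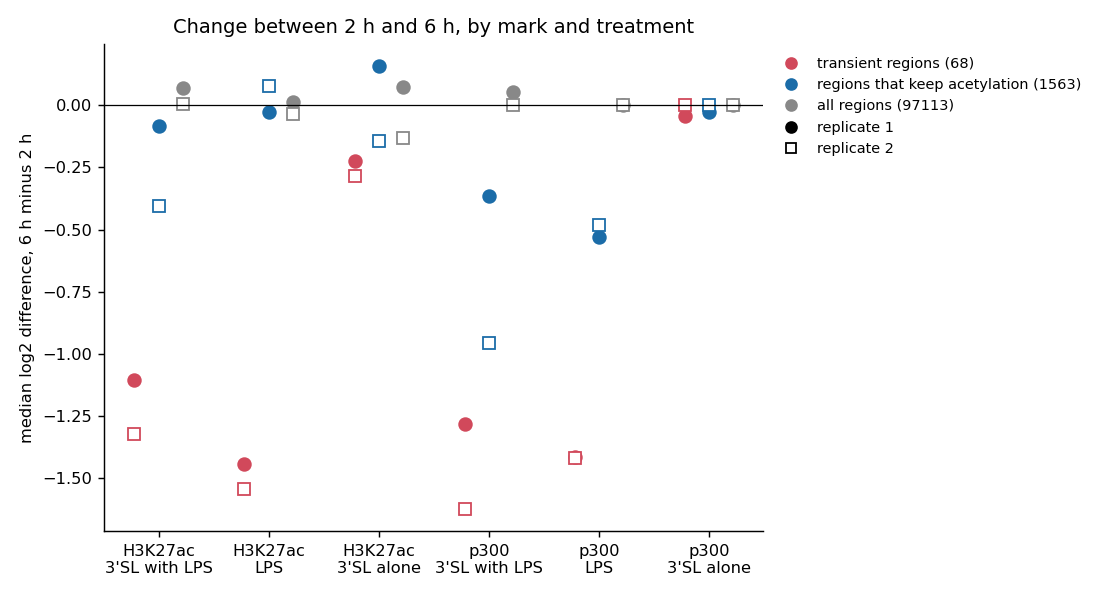
Median log2 difference of 6 h against 2 h for the 68 transient regions, the 1563 regions that keep acetylation and all 97113 regions, in each replicate, for H3K27ac and p300 with 3'SL and LPS, LPS alone and 3'SL alone. The H3K27ac values with LPS alone follow from the choice of the regions; in the other 3 columns with LPS the medians of the transient regions lie between -1.10 and -1.62, below both other sets.

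No difference of p300 between 3'SL with LPS and LPS alone passed the test at these regions. At 2 h the median log2 difference of 3'SL with LPS from LPS over the 68 regions was -0.28 in replicate 1 and 0.03 in replicate 2. Both libraries with the sugar were higher at 4 regions and lower at 4, where 11.4% and 13.4% of all regions were. At 6 h the medians were 0.09 and 0.00 in the 2 replicates, with 6 regions higher and 5 lower, where 12.1% and 12.2% of all regions were. The median over the 68 at 6 h was -0.03, but 0.23 as scaled by the authors, a shift of 0.30 in the median of the tested regions. Limma called 0 members and 0% of all regions in either direction at 2 h, and likewise at 6 h; 0 members had an unadjusted p under 0.05 at either time, where 1.08% of all tested regions did at 2 h and 2.95% at 6 h, and edgeR and DESeq2 called 0. Bcl2l11 shows the spread, with 81.5 and 52.6 with 3'SL and LPS at 2 h, against 66.1 and 47.6 with LPS. For H3K27ac the LPS libraries chose the regions, so these differences are given without a test. They were -0.23 and -0.33 at 2 h in the 2 replicates, and the regions that keep acetylation had -0.22 and -0.35. At 6 h they were -0.03 and 0.12, beside -0.24 and -0.76 over the regions that keep acetylation.

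For 3'SL alone against PBS no difference passed the test. H3K27ac at 6 h had a median of 7.82 and 3.94 normalised tags with 3'SL, against 6.95 in the PBS library, and limma called 0 regions higher or lower (0% each), with 0 members at an unadjusted p under 0.05, as were 1.48% of all tested regions. For p300 the medians were 3.62 and 1.20 at 2 h, against 1.80 with PBS, and 3.49 and 2.14 at 6 h, against 2.72; limma called 0 members and 0% of all regions in either direction at both times, with 4 and 0 members at an unadjusted p under 0.05, as were 5.75% and 2.10% of all tested regions. edgeR and DESeq2 called 0 in these 3 comparisons. Each rests on 1 PBS library. The median log2 difference of p300 at 6 h was 0.24, but -0.37 as scaled by the authors, a shift of -0.69 in the median of the tested regions.

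By the deposited annotation 30 regions were intergenic, 29 intronic, 8 at promoters and 1 in an exon. Within 1000 bases of a start site lay 11 regions (16.2%), beside 9.15% of the regions that keep acetylation and 20.8% of all regions, and the median distance to the nearest start site was 19148 bases. These 11 promoter regions carried more H3K27ac with 3'SL and LPS at 2 h, with medians of 66.1 and 120.5 normalised tags, than the 57 distal ones, with 38.9 and 26.4. The log2 differences between 6 h and 2 h in that arm were -0.997 and -0.961 at promoter regions and -1.18 and -1.34 at distal ones. For p300 the promoter regions had log2 differences of LPS from PBS at 2 h of 1.30 and 1.38, and the distal ones of 3.21 and 2.59. Those rest on 1 PBS library, whose median was 0 at the distal regions. For p300 with 3'SL and LPS against 3'SL at 2 h, promoter regions had 0.95 in replicate 1 and 2.49 in replicate 2. Distal regions had 1.81 and 2.03, so the order differed between the replicates. The 68 regions fall into 62 loci, since windows overlap near C030013C21Rik, Bahcc1, Zhx2, Tlr2, A530072M11Rik and Mmp13, so neighbouring values there are not independent.

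The regions had 60 different nearest genes. Nearness does not show which gene a region acts on. Of 18 NF-κB subunits and feedback genes 2 were among them, Nfkb1 and Nfkbiz, which encodes the nuclear IκB-family protein IκBζ, while 12 were nearest to a region that keeps acetylation. Of 39 cytokine and growth factor genes none was, beside 16 with a region that keeps acetylation, and of 30 interferon response genes none was, beside 13. Of 29 immediate early transcription factor genes 1 was, Klf6, a zinc finger factor, at 248034 bases, and of 22 receptor and signalling genes 1, Tlr2. Icam1 and the integrin subunit gene Itgav were the 2 of 16 cytoskeleton and adhesion genes, Gadd45b the 1 of 19 MAP kinase feedback genes, and 0 of 13 LXR target genes were found. The background was 60 of 18761 genes (0.320%) for transient regions and 881 genes for regions that keep acetylation (4.70%), from 1563 regions. Of the 60 genes, 19 were also nearest to a region that keeps acetylation. Nfkb1 had 5 of these and Nfkbiz 2, whereas Tlr2, Icam1, Gadd45b, Klf6, Bcl2l11 and Mmp13 had 0. Other regions raised at 2 h by the rule belonged to neither set. Tlr2 was nearest to 5 of them, Gadd45b and Nfkbiz to 3 each, Icam1, Bcl2l11 and Nfkb1 to 1 each, and Klf6 and Mmp13 to 0.

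The list genes not yet described follow. Nfkbiz, 67543 bases from its region, had p300 of 97.9 and 179 normalised tags with LPS at 2 h, against 46.8 with PBS, and 56.99 and 96.1 with LPS at 6 h, against 94.5 with PBS. Klf6 had p300 of 37.7 and 67.7 with LPS at 2 h, against 8.998 with PBS, and 13.3 and 13.9 with LPS at 6 h, against 20.0 with PBS. At both, the 6 h LPS libraries did not stand clear above the vehicle. Gadd45b had p300 of 99.1 and 70.2 with LPS at 2 h, against 34.2 with PBS, at a window where the input had 18.2 on the deposited scale. Itgav had 24.8 and 16.3 with LPS at 2 h, against 0 tags with PBS.

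Deposited peak lists of p300, LXR and SREBP came from macrophages given the LXR agonist GW3965, not LPS, and hold 1 list per factor. The ATAC interval of 20 of the 68 regions (29.4%, Wilson 95% interval 19.9% to 41.1%) overlapped a p300 peak by at least 1 base, beside 43.3% of the regions that keep acetylation and 33.3% of all regions. An LXR peak was found at 10 (14.7%), beside 17.4% and 21.9%, and a SREBP peak at 11 (16.2%), beside 21.9% and 21.6%. All 3 were found at 6 regions, which were Mir6352, Tnfaip2, Itgb8, Nfkbiz, H2-Q7 and Tlr2 -3785, and any of them at 20. Of the 7 regions with called p300 after LPS, Bcl2l11 had a p300 peak in the list and the other 6 had none. Overlaps with the p65 list are not reported, because 329 of its 41190 peaks end past the mm10 chromosome ends, so its coordinates are not those of mm10.

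The 9 motifs were searched in the 200 bases around each region's centre on both strands: NF-κB, ISRE, the SRF CArG box and the LXR DR4 element by name, AP-1 as TGANTCA, CRE as TGACGTCA, PU.1 as GAGGAAGT, EGR as GCGTGGGCG and C/EBP as TTGCGCAA. NF-κB matched in 19 of the 68 regions (27.9%, Wilson 95% interval 18.7% to 39.6%), beside 18.0% of the regions that keep acetylation and 4.01% of all regions. AP-1 matched in 17 (25.0%), beside 22.1% and 17.2%. ISRE matched in 4 (5.88%), beside 9.02% and 3.25%, PU.1 in 3 (4.41%), beside 7.55% and 9.68%, and the CArG box in 1 region, near Osgin2. CRE, EGR, C/EBP and DR4 matched in 0 regions. An NF-κB or AP-1 match was found in 31 regions and both in 5, which were Zhx2 -751, Tlr2 -3785, Pdlim5, Slc45a1 and Clec5a; 32 regions held none of the 9. A match says only that these letters are in the window. The median GC content was 49.25%, beside 47.0% in the regions that keep acetylation and 49.5% in all regions.

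**Figure D5:**
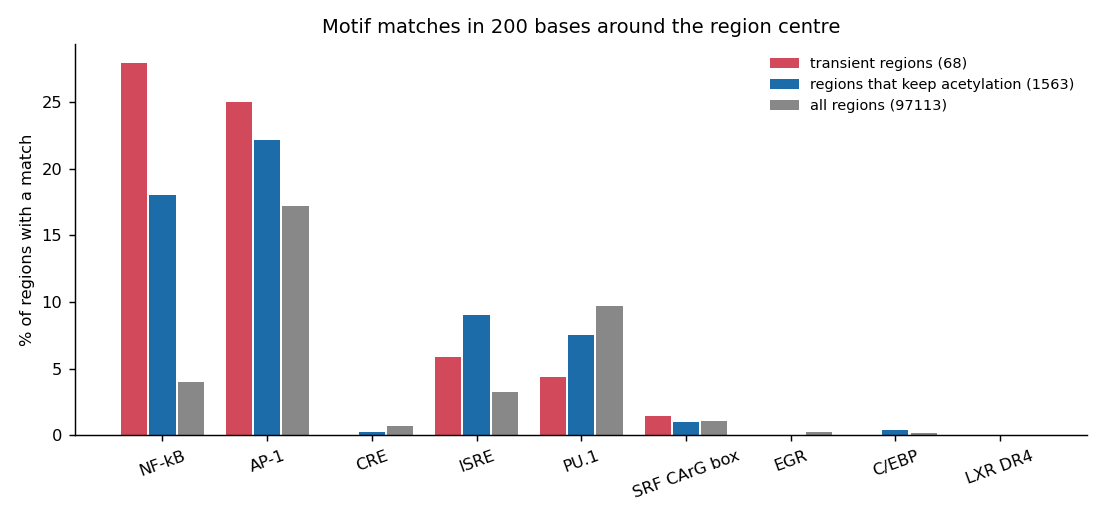
Share of regions with at least 1 match to each motif in the 200 bases around the region centre, for the 68 transient regions, the 1563 regions that keep acetylation and all 97113 regions. NF-κB stands at 27.9%, 18.0% and 4.01% in the 3 sets, and AP-1 at 25.0%, 22.1% and 17.2%.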

How the data were processed

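The members and lists were chosen with earlier results of these data known. Per the file headers, the deposited signal of H3K27ac and p300 is tags per 1000 bp (H3K27ac) or 200 bp (p300) window on mm10, which the authors put on a scale of 10000000 tags a library; Bowtie2, HOMER, DESeq2 and mm10 are named in the submitters' processing notes, with versions not given in the sources used here. Tags recovered from the library totals were within 0.05 of a whole number for 100% of values. Columns that matched no sample (3 for H3K27ac, 2 for p300) were not used.

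Values were rescaled by tags in tested regions times TMM factors. limma 3.58.1 (trended empirical Bayes, log2(value + 1), two-sided) was fitted over all regions passing filterByExpr of edgeR 4.0.16, 79349 for H3K27ac (16 libraries, 9 groups) and 62225 for p300 (14 libraries, 8 groups), in R 4.3.3, with Benjamini-Hochberg adjustment at 0.05. Scripts were tested on simulated data. Alternatives were leaving out each replicate, other scaling, pseudocount and filter, the count tests of edgeR and DESeq2 1.42.0, and a replicate block. Intervals and floors cover counting error only. The signal was tested on the log2 scale, since a count test is an alternative for recovered tags.

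Named regions were the 10 highest H3K27ac ratios, the smallest p values (10 for p300 at 2 h, 5 for each comparison of the times), those nearest to a listed gene, and those at each threshold; others were named after their values were seen. Nearest genes and positions are the deposited annotation, and sequence was read from the mm10 genome given with the data. The 68 regions comprise 55 that passed the p300 filter, so p300 counts are over all 68 unless the test is named.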

Additional observations from a re-analysis of the deposited data

How the results depend on the processing

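For H3K27ac between 3'SL with LPS and 3'SL at 2 h, 13 members were called, against 4 on the authors' scaling, 8 with no filter on low regions, 34 with DESeq2 and 0 to 2 when 1 library was left out. At 6 h the 1 call became 0 on the authors' scaling, with no filter and with edgeR, 3 with DESeq2, and 0 to 1 when 1 library was left out. Between the times with 3'SL and LPS, DESeq2 called 2. For p300 between LPS and PBS at 2 h, 7 members were called, against 0 on the authors' scaling and with edgeR, 4 with a pseudocount of 5, 4 with no filter, 1 with DESeq2, and 1 when either LPS library was left out. For p300 between 3'SL with LPS and 3'SL at 2 h, the 0 calls became 4 with a pseudocount of 5, 2 with edgeR and 6 with DESeq2. The causes were not tested.

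Replicate numbers are shared by the groups, but the labels do not tie them to a batch or animal and there are only 2. With the replicate block, limma called 53, 11 and 10 members for H3K27ac (3'SL with LPS against 3'SL at 2 h, at 6 h, and 6 h against 2 h) and edgeR with the block 58, 8 and 23. For p300 the block gave 21 (LPS against PBS at 2 h), 1 (at 6 h), 2 (LPS 6 h against 2 h), 17 (3'SL with LPS against 3'SL at 2 h) and 1 (3'SL with LPS, 6 h against 2 h), and edgeR with the block gave 14, 1, 3, 23 and 4, with 1 more comparison at 1 (3'SL with LPS against 3'SL at 6 h). Same-numbered libraries deviated together, with correlations of 0.439 to 0.658 over 21 pairs of groups for H3K27ac and 0.196 to 0.383 over 15 for p300.

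The number of regions, 68, became 155 at a fold of 2.5, 20 at a fold of 4, 13 at a 6 h limit of 1.5, 47 at a minimum of 20, 853 or 775 in 1 replicate, 81 (52 of them among the 68) with PBS 6 h as the vehicle for LPS 6 h in replicate 2, and 71 (60 among the 68) with TMM-rescaled values. In 100 bases, AP-1 matched in 16.2% of the members, beside 15.7% of the regions that keep acetylation and 12.6% of all regions, NF-κB in 20.6%, beside 11.6% and 2.49%, ISRE in 2.94%, beside 5.05% and 1.78%, and the CArG box in 0%, beside 0.640% and 0.582%. In the PBS 2 h p300 library 33 members had 0 tags, so a fold there is a lower bound.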
